A study of Mus musculus with 12 samples.

Results

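Alveolar macrophages are the resident phagocytes of the air spaces: they clear surfactant and inhaled particles, settle in the lung around birth and keep their own number by dividing in place. The comparison described here set macrophages of wild-type mice aged 10 weeks against those of wild-type mice aged 4 weeks, a span that runs from weaning to young adulthood. It held 4 of the series' 12 RNA sequencing libraries, 2 at each age, chosen by the genotype and age in the labels. The cells came fresh from lung lavage and had no treatment. The series also held 4 libraries of fresh cells from Vdr knockout mice, which lack the vitamin D receptor, at the same ages, and 4 of wild-type cells kept 24 h in culture with 0 or 50 nM vitamin D3. The labels give neither the strain, nor the sex, nor whether a library is 1 animal or a pool, so a p-value here reflects only how far these libraries scatter, and that scatter may be technical.

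The 4 wild-type libraries held 11630426 to 19122812 counted reads. Levels below are CPM, read counts scaled to a common library total, with library sizes adjusted by the trimmed mean of M-values (TMM). The 10-week libraries were of mixed sex in their reads: Xist, the RNA that coats the inactive X chromosome of females, was at 0.689 CPM in 10-week replicate 1 and 800.3 CPM in 10-week replicate 2, and at 0.280 and 0.145 CPM in the 4-week libraries. Ddx3y, a gene of the Y chromosome, was at 80.6 and 0.475 CPM at 10 weeks and at 79.2 and 80.1 CPM at 4 weeks. Replicate 1 at 10 weeks also carries a title number from another series of numbers than the other 3 libraries. The short description code of 10-week replicate 2 names a knockout, against its genotype label, and that of 1 knockout library names a wild type. In the authors' log2 table the columns coded WT10 hold the same values as the 2 libraries labelled wild type, so the genotype labels were kept. Vdr itself was at 79.6 and 126.9 CPM at 10 weeks and at 56.5 and 57.7 CPM at 4 weeks, a log2 difference of 0.85 (SE 0.31) with an edgeR adjusted p of 0.177. The knockout libraries also held Vdr reads, at 31.3 to 84.2 CPM. The sources used here do not say which part of the gene the knockout removes, so these counts do not check the labels.

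Between 4 and 10 weeks transcripts of Ciita and of 4 MHC class II antigen presentation genes rose by 13.4 to 19.3-fold in the wild-type libraries. Transcripts of Hr, Ttll7, Epcam, Lepr and Scd1 rose too. Globin transcripts, which are made by erythroid cells and whose source was not tested, fell. So did those of the fetal growth factor messenger-binding protein Igf2bp3, the proteoglycan Cspg4, the scavenger receptor Msr1, the carbonic anhydrase Car4 and the clock repressor Nr1d1. In edgeR's quasi-likelihood F test over 12748 genes, 269 genes (2.11%) had a Benjamini-Hochberg adjusted p under 0.05, the threshold used throughout. Of these 179 (1.4%) were higher and 90 (0.706%) lower at 10 weeks. DESeq2, an alternative test, called 676 of the same 12748 genes, 417 higher and 259 lower. The median log2 fold change was 1.10 among the 179 higher genes and -0.96 among the 90 lower ones, and 95 and 41 of them differed by at least 2-fold. Every one of the 269 had 10-week values that did not overlap the 4-week values, but so had 27.8% of all genes in the higher and 26.8% in the lower direction. Leaving out a library left 58 to 153 calls: 58 without 10-week replicate 1, 153 without 10-week replicate 2, 70 without 4-week replicate 1 and 74 without 4-week replicate 2. A set of 27 higher and 10 lower genes was called in all 4 of those fits, and the named genes that were not are given below with the library concerned. A group then holds 1 library, which is assumed to vary like the other groups.

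The sex, the title series and the conflicting code each touch 1 of the 10-week libraries. With sex as a covariate, read from Xist alone, 154 of the 179 higher and 61 of the 90 lower calls remained, and with the title series as a covariate 151 and 72 remained. With the 2 libraries of conflicting code exchanged between the genotypes 126 and 55 remained. Of the genes named below, Cd36, Dnajb1, Fads1, Ifngr1, S100a9 and Tef lost their calls with the sex covariate, and Bpgm, Cxcl9, Nfil3, Ptgir and S100a9 with the title series. With the exchange Cd36, Chordc1, Dnaja1, Dnajb1, Fads1, Fhdc1, Hpgds, Rgcc, Scd1, Slc39a2, Slpi and Tef lost theirs and Gm17757 changed its sign. The 6 class II genes, Car4, Msr1, Nr1d1, Epcam, Hr and the globin genes were among the 50 of 69 named calls that held under all 3.

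**Figure D1:**
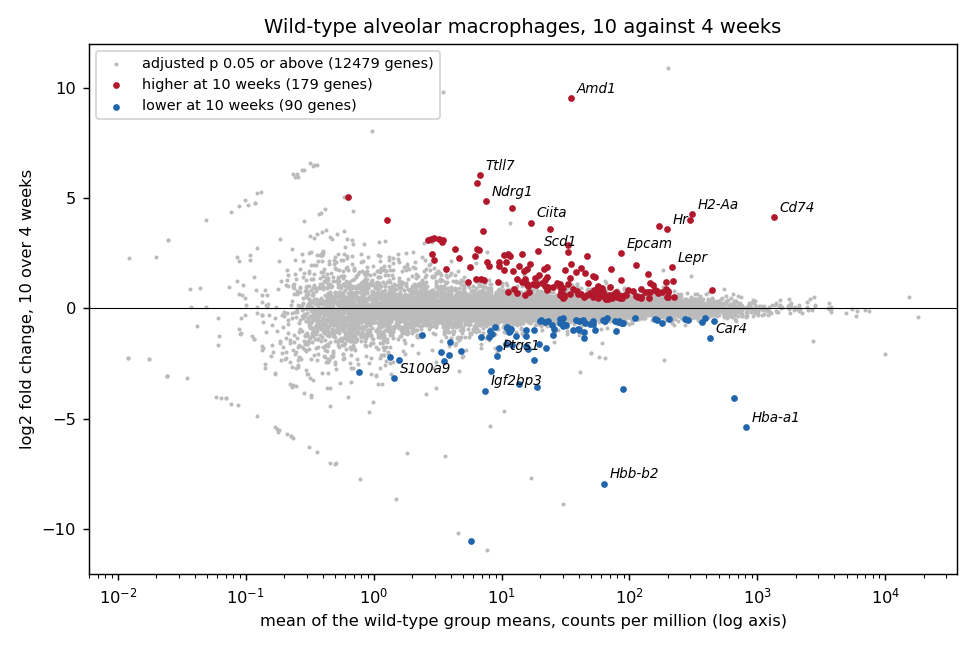
Each point is 1 of the 12748 genes tested, with its mean level in CPM (log axis) across the wild-type groups and its log2 fold change, 10 over 4 weeks. Red marks the 179 genes higher and blue the 90 lower at an adjusted p under 0.05; the MHC class II genes stand at the upper right and the globin genes at the lower right.

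MHC class II molecules carry peptides from engulfed material to the cell surface, where helper T cells read them. Ciita is the transactivator that switches the class II genes on by way of factors bound to short promoter elements, the X and Y boxes. Ciita stood at 37.5 and 25.5 CPM at 10 weeks against 3.004 and 1.40 CPM at 4 weeks. Both 10-week libraries were far above both 4-week libraries, a log2 fold change of 3.89 (SE 0.34, edgeR adjusted p 0.000534). H2-Aa, the alpha chain of the I-A molecule, was at 677 and 494 CPM against 47.9 and 13.5 CPM (log2 fold change 4.27, SE 0.65, adjusted p 0.00658). Its partner beta chain H2-Ab1 was at 586.9 and 540.0 CPM against 53.4 and 17.2 CPM (4.01, SE 0.57, adjusted p 0.0051). Both chains of I-A thus rose together, and for each 4-week replicate 1 was above 4-week replicate 2. H2-Eb1, the beta chain of the I-E molecule, was at 356.3 and 277.0 CPM against 36.3 and 11.8 CPM (3.74, SE 0.52, adjusted p 0.00475). Cd74, the invariant chain that fills the class II groove until a peptide arrives, was at 2860 and 2281 CPM against 238.0 and 53.3 CPM (4.15, SE 0.67, adjusted p 0.00965). H2-DMb1, a chain of the peptide loading chaperone, rose less, from 81.7 and 61.4 CPM to 221.3 and 195.2 CPM (1.54, SE 0.14, adjusted p 0.000534). Without 4-week replicate 2 the adjusted p of H2-Aa was 0.053, and without 10-week replicate 1 that of Cd74 was 0.0508. The other 4 genes kept their calls whichever library was left out.

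Promoter windows, in which letters of the elements named above were searched, are printed for 3 class II genes that rose and for H2-DMb2, the neighbouring copy of H2-DMb1 that passed no test. Each window runs from 250 bases before to 50 after the gene's start in the RefSeq table of build GRCm38.p6, which is not the build of the counts. The capitals mark the X-box letters AACNGATG and the Y-box letters GATTGG, searched on both strands.
H2-Eb1, chr17:34305617-34305916, plus strand: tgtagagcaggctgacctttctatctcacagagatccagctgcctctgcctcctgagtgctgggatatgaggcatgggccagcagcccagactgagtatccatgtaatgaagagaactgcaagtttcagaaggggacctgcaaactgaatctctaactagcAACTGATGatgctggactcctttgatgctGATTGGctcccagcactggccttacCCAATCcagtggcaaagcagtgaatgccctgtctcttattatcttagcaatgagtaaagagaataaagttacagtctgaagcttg
H2-Aa, chr17:34287774-34288073, minus strand: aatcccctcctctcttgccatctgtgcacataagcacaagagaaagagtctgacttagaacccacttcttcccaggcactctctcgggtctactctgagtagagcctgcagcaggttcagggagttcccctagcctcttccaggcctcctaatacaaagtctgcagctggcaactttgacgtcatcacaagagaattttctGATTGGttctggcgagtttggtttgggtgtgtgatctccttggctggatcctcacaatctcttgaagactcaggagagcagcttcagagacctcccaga
H2-DMb1, chr17:34152941-34153240, plus strand: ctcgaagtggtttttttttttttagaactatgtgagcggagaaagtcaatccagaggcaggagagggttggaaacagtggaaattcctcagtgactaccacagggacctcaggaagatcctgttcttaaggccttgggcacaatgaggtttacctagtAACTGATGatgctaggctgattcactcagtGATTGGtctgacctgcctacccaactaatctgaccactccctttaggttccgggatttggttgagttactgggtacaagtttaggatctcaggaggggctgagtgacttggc
H2-DMb2, chr17:34144999-34145298, plus strand: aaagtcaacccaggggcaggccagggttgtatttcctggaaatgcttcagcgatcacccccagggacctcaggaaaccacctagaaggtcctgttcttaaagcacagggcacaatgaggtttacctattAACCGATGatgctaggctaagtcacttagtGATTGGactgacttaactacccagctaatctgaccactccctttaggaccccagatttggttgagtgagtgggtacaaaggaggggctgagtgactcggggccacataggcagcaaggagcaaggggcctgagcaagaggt
The AACNGATG letters were in 2.32% and the GATTGG letters in 16.1% of the 32851 promoter windows of the table, and both were in 0.335%. The table matched 10 of the 16 class II list members by symbol. GATTGG was in all 3 matched members that rose and in 5 of the 7 that passed no test, and both elements were in 2 members of each kind. The window of H2-Aa held GATTGG but no AACNGATG. H2-DMb1 and H2-DMb2 thus share both elements in the same order, and a match is a description of letters, not of binding.

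The rest of the class II list was not called. In all 14 members were tested: 6 rose, 0 fell and 8 did not pass, with a median log2 fold change of 1.09 against -0.003 over all genes. H2-DMb2 was at 13.2 and 11.4 CPM at 10 weeks and at 12.6 and 10.7 CPM at 4 weeks, so the groups overlapped (log2 difference 0.08, SE 0.20, adjusted p 0.854). As H2-DMb1 and H2-DMb2 are close copies, reads that match both could have been split between them. H2-DMa, the alpha chain of the same chaperone, was at 316.6 and 324.7 CPM against 268.1 and 229.3 CPM (0.37, adjusted p 0.173). The costimulatory ligands Cd80 (log2 difference 0.96, adjusted p 0.128) and Cd86 (0.59, adjusted p 0.183), which T cells need beside the class II signal, were higher in both 10-week libraries without passing the test. Class II transcripts also mark dendritic and B cells. Of 15 dendritic cell markers tested 1 rose and 0 fell, 8 log2 values were below 0 and the median was -0.01. The call was Clec9a, a receptor for dead cells, from 1.82 and 1.59 CPM to 13.8 and 8.39 CPM (2.72, SE 0.34, adjusted p 0.00297). Clec9a kept its call whichever library was left out. Itgae, the integrin CD103, was at 6.99 and 5.14 CPM against 2.37 and 1.59 CPM (1.63, adjusted p 0.0521), and Flt3, the receptor that dendritic cell precursors need, at 3.15 and 2.93 CPM against 1.68 and 1.21 CPM (1.08, adjusted p 0.37). Batf3, a transcription factor of cross-presenting dendritic cells, named after its value was seen, was at 2.71 and 3.32 CPM against 9.50 and 5.21 CPM (-1.28, adjusted p 0.119). The summed level of all 17 dendritic cell markers overlapped, at 288.6 and 266.2 CPM against 288.1 and 187.5 CPM. Of the B and plasma cell markers 0 of 3 tested passed, the sums were 199.1 and 166.9 CPM against 165.9 and 165.3 CPM, and Ebf1, which B cells need, was at 0 in all 4 libraries. Cd22 alone was at 197.2 and 165.0 CPM at 10 weeks and at 158.4 and 163.6 CPM at 4 weeks. The B cell sums thus mainly gave the level of Cd22. The part of such cells in the class II result was not tested.

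**Figure D2:**
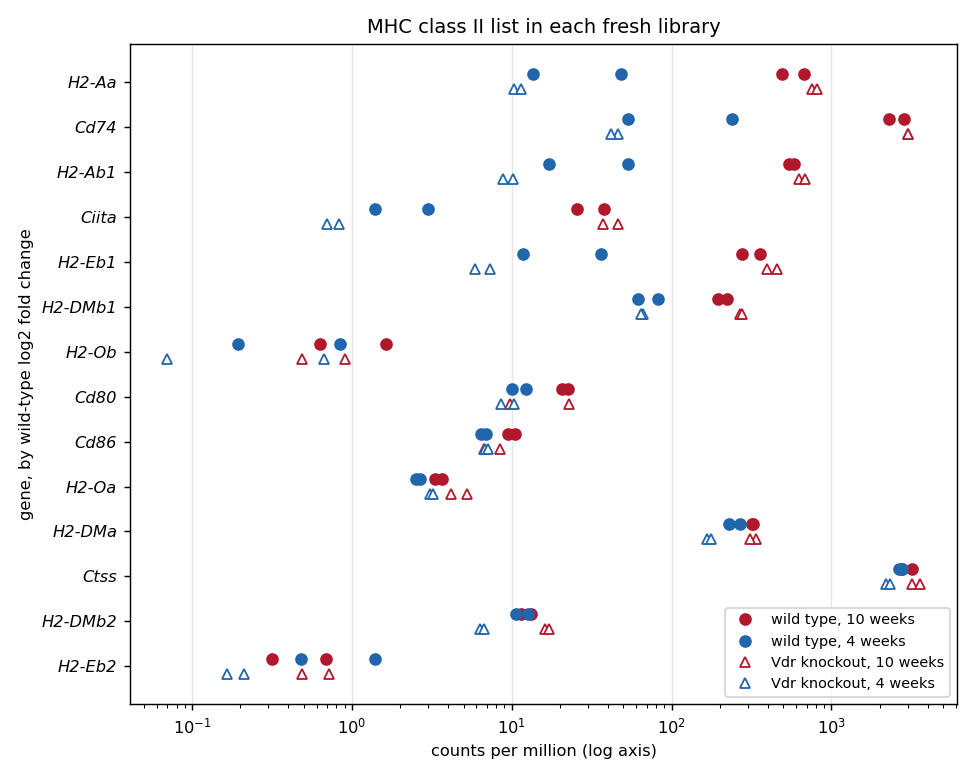
Level of each tested MHC class II list member in CPM (log axis) in each fresh library, ordered by the wild-type log2 fold change, with red for 10 weeks, blue for 4 weeks, circles for wild type and open triangles for Vdr knockout. In the 6 upper genes both 10-week circles lie to the right of both 4-week circles, with log2 fold changes of 1.54 to 4.27; H2-DMb2 overlaps in wild type.

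Several genes with other roles rose too. Hr, a nuclear corepressor that binds the vitamin D and thyroid hormone receptors, was at 421.6 and 308.8 CPM at 10 weeks and at 37.6 and 23.2 CPM at 4 weeks (log2 fold change 3.60, SE 0.59, adjusted p 0.0104). Ttll7, a tubulin polyglutamylase, was nearly absent at 4 weeks, at 0.0699 and 0.290 CPM, and stood at 16.2 and 10.8 CPM at 10 weeks (6.05, SE 0.83, adjusted p 0.00455). Clec1b, the podoplanin receptor CLEC-2, was at 58.5 and 29.7 CPM against 6.08 and 1.59 CPM (3.61, SE 0.51, adjusted p 0.00492). Its ligand Pdpn rose with it, from 1.68 and 1.98 CPM to 13.2 and 9.66 CPM (2.64, SE 0.26, adjusted p 0.000724). Epcam, a homophilic adhesion molecule, was at 133.6 and 159.2 CPM against 34.8 and 16.8 CPM (2.52, SE 0.35, adjusted p 0.00492). Both Pdpn and Epcam are also markers of lung epithelium: of that list of 26 tested markers 2 rose and 0 fell, 16 log2 values were below 0 with a median of -0.23, the sums with both genes were 662.3 and 803.3 CPM against 534.9 and 471.9 CPM, and the part of epithelial RNA in these 2 genes was not tested. The secretory and alveolar type II markers Scgb1a1 (29.8 and 30.5 CPM against 26.0 and 10.7 CPM) and Sftpc (7.38 and 17.0 CPM against 12.7 and 6.37 CPM) did not pass. Of the 10 markers above 0, Tppp3 was at 153.6 and 194.7 CPM against 121.3 and 92.5 CPM (0.70, adjusted p 0.0527). Abca3 was at 148.9 and 140.2 CPM against 109.9 and 123.1 CPM (0.31, adjusted p 0.229), so these abundant markers were also higher without passing. Among the 16 markers below 0, Hopx was at 1.97 and 3.09 CPM against 7.06 and 6.52 CPM. Ager was at 1.63 and 2.37 CPM against 3.28 and 3.67 CPM, and neither passed. Ndrg1, a stress-responsive gene, rose from 0.629 and 0.386 CPM to 12.46 and 16.7 CPM (4.86, SE 0.65), and Mfsd6, a membrane protein of the major facilitator family, from 1.05 and 0.917 CPM to 33.4 and 12.6 CPM (4.56, SE 0.61), each at an adjusted p of 0.00373. The matrix protein gene Hmcn1 was at 22.2 and 3.01 CPM against 0.419 and 0.0966 CPM (5.71, SE 1.12, adjusted p 0.03) and was uneven between the 10-week libraries. Slc1a3, a glutamate transporter (3.52), Bicd1, a dynein adaptor (3.18), and Osbpl5, a lipid transfer protein (3.16), were the others among the 15 largest increases of called genes averaging at least 5 CPM at 10 weeks, predicted and sex-linked genes left out. Lepr, the leptin receptor, Gabbr1, a GABA receptor subunit, and Itgad, the integrin CD11d, were singled out after their values were seen, since they kept their calls whichever library was left out. Lepr was at 350.4 and 326.3 CPM against 92.6 and 93.3 CPM (1.86, SE 0.17), Gabbr1 at 52.7 and 59.8 CPM against 14.7 and 13.3 CPM (2.01, SE 0.19) and Itgad at 48.0 and 65.2 CPM against 11.8 and 7.58 CPM (2.56, SE 0.24). Ttll7, Clec1b, Pdpn and Epcam also kept their calls in each such fit. Ndrg1 and Mfsd6 lost theirs without 4-week replicate 2 (adjusted p 0.0517 for both), and Hr, Hmcn1, Slc1a3, Bicd1 and Osbpl5 lost theirs without 10-week replicate 1, 4-week replicate 1 or 4-week replicate 2, at adjusted p-values up to 0.293 and log2 fold changes of 3.29 to 3.97 for Hr and 3.60 to 6.93 for Hmcn1.

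Amd1, which encodes the decarboxylase that feeds polyamine synthesis, was at 81.3 and 58.3 CPM at 10 weeks and at 0.0699 and 0.0966 CPM at 4 weeks, 2387 reads in all against 3, a ratio of 846 with a 95% interval of 289 to 4100 that covers counting error only. Its near-identical copy Amd2 went the other way, at 8.03 and 38.4 CPM against 97.7 and 113.6 CPM (log2 difference -2.23, SE 1.23, adjusted p 0.362), so the level of either is uncertain. In the knockout libraries Amd1 was at 76.9 to 108.5 CPM at both ages. A predicted gene, Gm17757, named after its value was seen, had 0 reads at 10 weeks and 345 at 4 weeks, which makes it at least 108-fold lower at 10 weeks against a floor of 3 reads over the group. It too differed between libraries of 1 age, at 20.4 and 2.56 CPM at 4 weeks, and in knockout it went the other way, at 37.6 and 24.0 CPM at 10 weeks and 0.443 and 0 CPM at 4 weeks. Its call was lost without 10-week replicate 1 (adjusted p 0.194), 10-week replicate 2 (0.0785) or 4-week replicate 1 (0.057), while that of Amd1 held whichever library was left out.

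Haemoglobin transcripts, which are made by erythroid cells, fell between 4 and 10 weeks. Hba-a1, an alpha globin, was at 2315 and 884.8 CPM at 4 weeks and at 36.3 and 40.5 CPM at 10 weeks (log2 fold change -5.38, SE 0.55, adjusted p 0.00105). The beta globin listed as Beta-s was at 1740 and 728.9 CPM at 4 weeks against 100 and 47.6 CPM at 10 weeks (-4.06, SE 0.55, adjusted p 0.0042). Hbb-b1 went from 198.6 and 129.9 CPM to 16.9 and 8.94 CPM (-3.64, SE 0.42, adjusted p 0.00373), and Hbb-b2 from 211.2 and 42.6 CPM to 0 and 1.27 CPM. Globin genes are near-identical copies, so the reads of one can have been counted for another. Alas2, the erythroid enzyme that starts haem synthesis, fell from 47.7 and 22.7 CPM to 3.64 and 2.06 CPM (-3.58, SE 0.44, adjusted p 0.00297). Of 12 erythroid and platelet markers tested 5 fell and 0 rose, and the summed level went from 3238 and 1406 CPM to 220.3 and 125.2 CPM. In every one of these genes 4-week replicate 1 was above 4-week replicate 2. In bulk RNA fewer cells of a type and less RNA per cell cannot be told apart, and whether the globin RNA came from red cells in the lavage was not tested. Bpgm, the red cell bisphosphoglycerate mutase (-1.26, adjusted p 0.0337), lost its call without 10-week replicate 1 (adjusted p 0.246), 10-week replicate 2 (0.121) or 4-week replicate 1 (0.242), and Hbb-b2 without 10-week replicate 1 (0.0508).

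Markers of other cell types are given by their summed levels, which overlapped between ages for 4 of the 10 lists, dendritic cells included. Monocyte and interstitial macrophage markers (0 of 16 passed) summed to 1905 and 2175 CPM at 10 weeks against 2178 and 1519 CPM at 4 weeks. The T cell list (0 of 14 passed) summed to 254.4 and 278.2 CPM against 229.4 and 194.5 CPM, the eosinophil, basophil and mast cell list (0 of 3) to 42.7 and 64.8 CPM against 47.9 and 47.0 CPM with Prg2, Epx and Mcpt8 at 0, and the endothelial and stromal list (0 of 5) to 112.3 and 112.9 CPM against 118.9 and 132.7 CPM with Cdh5 at 0. In these 5 lists with the B cell one, 7 of 41 tested markers had an unadjusted p under 0.05 in edgeR's fit and 1 was called by DESeq2. A single gene made up most of each of these sums. At 10 weeks Fn1 was 1407 and 1717 CPM of the monocyte sum and Cd2 235.9 and 245.6 CPM of the T cell sum. Siglece was 37.4 and 58.25 CPM of the eosinophil sum and Vwf 107.2 and 109.7 CPM of the endothelial sum. Neutrophil markers summed to 96.2 and 117.5 CPM against 103.5 and 107.5 CPM. Of 7 tested, 1 fell and 0 rose, with 5 log2 values below 0 and a median of -0.6. Among them S100a9, a calcium-binding alarmin, fell from 3.77 and 1.45 CPM to 0.197 and 0.396 CPM (log2 fold change -3.16, adjusted p 0.0432), while its partner S100a8 was at 2.17 and 2.93 CPM against 3.14 and 4.39 CPM (-0.60, adjusted p 0.564). The NK and innate lymphoid list summed to 16.5 and 14.6 CPM at 10 weeks and to 7.62 and 7.15 CPM at 4 weeks, without overlap. Rora alone was 10.7 and 7.92 CPM of it at 10 weeks and 3.21 and 4.06 CPM at 4 weeks. The list's 1 called gene of 6 tested was Areg, the growth factor amphiregulin, with 41 reads at 10 weeks and 1 at 4 weeks, a ratio of 43.6 with a 95% counting interval of 7.4 to 1760. Areg lost its call whichever library was left out (adjusted p up to 0.19), and S100a9 without either 10-week library or 4-week replicate 1 (up to 0.347).

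**Figure D3:**
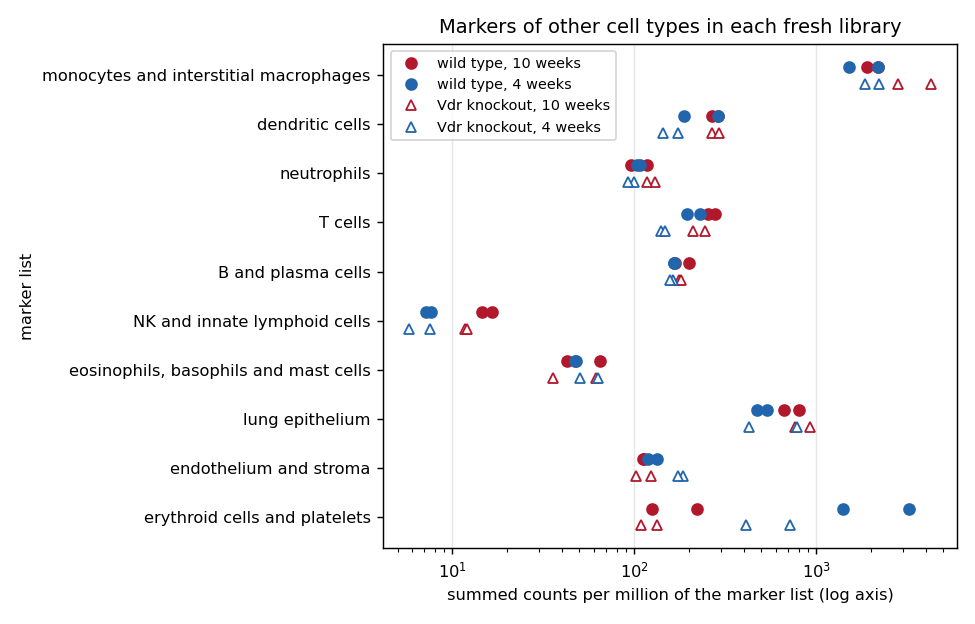
Summed CPM (log axis) of each list of markers of other cell types in each fresh library, with red for 10 weeks, blue for 4 weeks, circles for wild type and open triangles for Vdr knockout. The erythroid and platelet list falls from 3238 and 1406 CPM at 4 weeks to 220.3 and 125.2 CPM at 10 weeks in wild type, while 4 lists overlap between ages, 4 are higher and the endothelial and stromal list is lower at 10 weeks. A single gene makes up most of the sum in several lists.

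Of 29 tested genes that define alveolar macrophages 1 rose and 2 fell in edgeR, and 1 and 3 by DESeq2. The median log2 fold change was -0.04, while 9 genes were higher and 9 lower at 10 weeks without overlap, where 27.8% and 26.8% of all genes were. Siglec5, the file's symbol for the sialic acid receptor Siglec-F, was at 544 and 516.7 CPM at 10 weeks and at 464.9 and 447.2 CPM at 4 weeks (log2 difference 0.22, adjusted p 0.541). Pparg, the lipid-sensing receptor that alveolar macrophages need, was at 185.4 and 194.2 CPM against 174.1 and 169.8 CPM (0.14, adjusted p 0.61), and Itgax, the integrin CD11c, at 1869 and 1518 CPM against 1356 and 1251 CPM (0.38, adjusted p 0.167). All 4 libraries thus held these defining genes. Car4, a membrane carbonic anhydrase that marks mature alveolar macrophages, fell from 602.2 and 617.5 CPM to 265.5 and 216.1 CPM (-1.34, SE 0.15, adjusted p 0.00184). Its 4-week libraries were almost level and its call held whichever library was left out. Slc39a2, a zinc importer, fell from 89.3 and 120.0 CPM to 61.2 and 42.7 CPM (-1.01, SE 0.18, adjusted p 0.0157). Flt1, a VEGF receptor, rose from 138.9 and 121.5 CPM to 334.4 and 275.7 CPM (1.23, SE 0.25, adjusted p 0.0314). Of 28 macrophage lineage transcription factors 0 passed the edgeR threshold, 7 had an unadjusted p under 0.05 and 2 were called by DESeq2. Slc39a2 lost its call without 10-week replicate 2 (adjusted p 0.0854) or 4-week replicate 2 (0.122), and Flt1 whichever library was left out (up to 0.236).

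Chosen by size of decrease under the same limits, Cspg4, the proteoglycan NG2, fell from 29.2 and 20.8 CPM to 1.18 and 3.80 CPM (log2 fold change -3.43, SE 0.43, adjusted p 0.00297). Sash1, a signalling scaffold, fell from 14.7 and 14.2 CPM to 1.58 and 2.61 CPM (-2.83, SE 0.45, adjusted p 0.00965), and Rgcc, a regulator of the cell cycle, from 31.2 and 27.9 CPM to 4.14 and 8.07 CPM (-2.32, SE 0.29, adjusted p 0.00303). For all 3 genes 10-week replicate 1 was the lowest library. The lysine methyltransferase gene Smyd2 fell by 2.13, the formin gene Fhdc1 by 1.97 and the integrin-linking talin gene Tln2 by 1.94 on the log2 scale (adjusted p 0.0114, 0.0186 and 0.00965). Cspg4 and Rgcc kept their calls whichever library was left out. Sash1 lost its call without 10-week replicate 1 (adjusted p 0.153), Smyd2 without that library or 4-week replicate 2 (up to 0.107), Tln2 without that library or 4-week replicate 1 (up to 0.15), and Fhdc1 without either 10-week library or 4-week replicate 2 (up to 0.153).

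Receptors for lipids, microbes and cytokines changed in single members. Msr1, the class A scavenger receptor, fell from 29.9 and 20.9 CPM to 5.91 and 8.23 CPM (log2 fold change -1.86, SE 0.23, adjusted p 0.00303), and kept its call whichever library was left out. Cd36, the fatty acid and oxidised lipid receptor, fell from 539 and 564.3 CPM to 394.6 and 345.2 CPM (-0.58, SE 0.13, adjusted p 0.0431). These were the 2 called genes of 18 scavenger receptors. Of 23 Toll-like receptor genes 2 rose: Tlr8, a sensor of single-stranded RNA, from 109.3 and 124.5 CPM to 225.8 and 317.6 CPM (1.22, SE 0.22, adjusted p 0.0184), and Tlr4, the lipopolysaccharide receptor, from 104.9 and 123 CPM to 226.8 and 181.2 CPM (0.84, SE 0.17, adjusted p 0.0331). Cytokine receptors rose by less. Il4ra, shared by the IL-4 and IL-13 receptors, went from 147.1 and 145.0 CPM to 266.0 and 243.0 CPM (0.80, SE 0.12, adjusted p 0.0056), Il6ra by 0.76 (adjusted p 0.0186) and Ifngr1, the ligand-binding chain of the interferon gamma receptor, by 0.54 (adjusted p 0.0457). Among ligands, Tnfsf13b, the B cell survival factor BAFF, rose from 3.84 and 2.85 CPM to 16.6 and 8.79 CPM (1.94, SE 0.38, adjusted p 0.0265), and Ebi3, a subunit of IL-27, fell from 6.92 and 4.92 CPM to 0.738 and 1.58 CPM (-2.40, SE 0.46, adjusted p 0.0242). In the cytokine list of 30 tested, 4 thus rose and 1 fell. Of 24 chemokine genes the macrophage inflammatory protein Ccl3 fell, from 19.2 and 13.6 CPM to 7.09 and 3.32 CPM (-1.61, adjusted p 0.0195), and the interferon-induced Cxcl9 rose, from 1.40 and 0.773 CPM to 5.86 and 3.80 CPM (2.18, adjusted p 0.032). Cd36 and Cxcl9 lost their calls whichever library was left out, Il6ra without either 10-week library or 4-week replicate 1, Tlr4, Il4ra, Tnfsf13b and Ebi3 without 10-week replicate 1 or either 4-week library, Tlr8 and Ifngr1 without 10-week replicate 2 or either 4-week library, and Ccl3 without 10-week replicate 2 or 4-week replicate 1, at adjusted p-values up to 0.302.

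Lipid mediators and lipid synthesis followed. Prostaglandins are made from arachidonic acid by cyclooxygenases, and 3 of 22 eicosanoid genes fell while 0 rose. Ptgs1, cyclooxygenase 1, went from 18.2 and 11.8 CPM to 3.003 and 3.88 CPM (log2 fold change -2.13, SE 0.41, adjusted p 0.0247). Hpgds, which makes prostaglandin D2, went from 17.3 and 19.02 CPM to 5.37 and 6.41 CPM (-1.64, SE 0.32, adjusted p 0.0252), and Ptgir, the prostacyclin receptor, from 37.9 and 30.6 CPM to 9.06 and 11 CPM (-1.78, SE 0.39, adjusted p 0.0395). Ptges, which makes prostaglandin E2, was at 6.204 and 7.52 CPM against 13.8 and 14.97 CPM (-1.08, adjusted p 0.0614). Of 31 cholesterol and fatty acid synthesis genes 1 passed: Scd1, the desaturase that makes oleate, rose from 6.71 and 4.44 CPM to 39.8 and 26.7 CPM (2.61, SE 0.39, adjusted p 0.0058). Fads1, the delta-5 desaturase, which lies outside the lists and was named after its value was seen, rose from 9.92 and 10.4 CPM to 16.0 and 17.0 CPM (0.69, SE 0.16, adjusted p 0.0498). Of 33 matrix and protease genes Timp2 and Slpi, inhibitors of metalloproteases and of neutrophil elastase, rose by 1.30 (SE 0.25) and 0.72 (SE 0.14), both at an adjusted p of 0.0247, and of 39 lysosomal genes the regulator Tfeb fell by 0.61 (adjusted p 0.0247). Hpgds, Ptgir, Fads1 and Tfeb lost their calls whichever library was left out, Ptgs1 without either 10-week library or 4-week replicate 1, Timp2 without either 10-week library or 4-week replicate 2, and Scd1 and Slpi without 10-week replicate 1 or 4-week replicate 2, at adjusted p-values up to 0.307.

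Igf2bp3, an RNA-binding protein of fetal and early postnatal tissue, fell from 13.9 and 13.8 CPM to 0.689 and 1.504 CPM (log2 fold change -3.73, SE 0.61, adjusted p 0.0106), the 1 call of 15 tested genes of the postnatal growth list, in which 7 log2 values were above 0 and the median was -0.13. Its relative Igf2bp2 was at 26.1 and 22.6 CPM at 10 weeks and at 13.5 and 19.6 CPM at 4 weeks (0.55, adjusted p 0.199). Of 58 cell cycle genes 2 fell and 0 rose: Cdt1, which licenses replication origins, from 59.5 and 61.4 CPM to 36.6 and 38.0 CPM (-0.70, SE 0.10, adjusted p 0.0058), and Cdc20, an activator of the anaphase-promoting complex, from 24.2 and 23.8 CPM to 10.6 and 13.8 CPM (-0.98, SE 0.20, adjusted p 0.0278). The other 56 did not pass, among them the mitotic cyclin Ccnb1 at 15.4 and 17.97 CPM against 25.3 and 32.5 CPM (-0.80, adjusted p 0.0625) and the proliferation marker Mki67 at 149.9 and 139.8 CPM against 164.7 and 185.6 CPM (-0.27, adjusted p 0.718). All 58 log2 values were below 0, with a median of -0.47, and 54 had 10-week values below both 4-week values. Of all genes 26.8% were placed that way. Igf2bp3 lost its call without 10-week replicate 1 (adjusted p 0.155), Cdt1 without 10-week replicate 1 (0.087) or 4-week replicate 2 (0.0603), and Cdc20 without 10-week replicate 1 or either 4-week library (up to 0.275).

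Of 48 cytosolic ribosomal protein genes 0 passed the edgeR threshold, all 48 log2 values were below 0 with a median of -0.33, and 46 were lower without overlap. Of all genes 26.8% were lower without overlap and 49.4% had a log2 value above 0. An unadjusted p under 0.05 in edgeR's fit was found for 40 of the 48 and for 18.6% of all genes. DESeq2 called 11 of the 48, and 676 of all 12748 genes, 259 of them lower. Rps19, for instance, was at 195.6 and 249.4 CPM at 10 weeks and at 329.2 and 326.2 CPM at 4 weeks (-0.56, adjusted p 0.0691). The summed level of the list was 22120 and 24520 CPM against 27900 and 28840 CPM. Many of these genes have processed copies in the genome, so their counts depend on how shared reads were assigned. Of 45 oxidative phosphorylation genes 0 passed in edgeR, 7 had an unadjusted p under 0.05 and 1 was called by DESeq2, while 43 log2 values were below 0 and the median was -0.20.

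**Figure D4:**
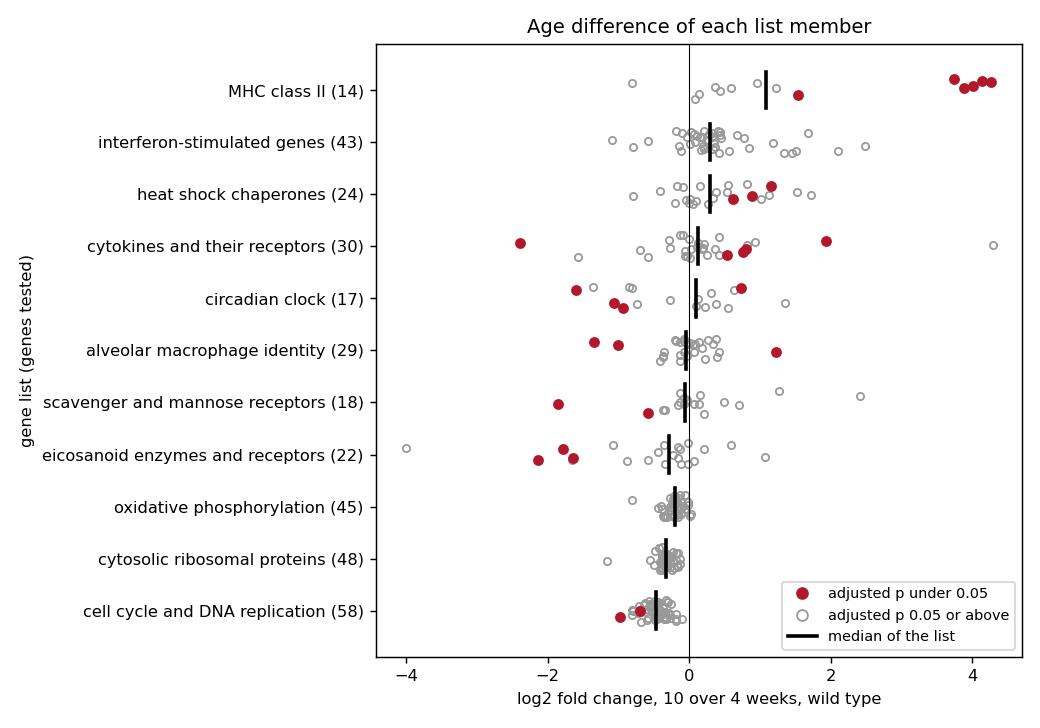
Log2 fold change, 10 over 4 weeks in wild type, of each tested member of 11 gene lists, with filled red points for an adjusted p under 0.05 and a black bar at the list's median. The median is 1.09 for MHC class II, -0.33 for ribosomal proteins and -0.47 for the cell cycle list, whose 58 points all lie below 0.

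The circadian clock is a feedback loop of activators and repressors, and its repressors include Nr1d1 and Nr1d2, the REV-ERB proteins, and Nfil3. Nr1d1 fell from 30.9 and 28.2 CPM to 11.5 and 7.76 CPM (log2 fold change -1.60, SE 0.23, adjusted p 0.0056), and kept its call whichever library was left out. Nr1d2 fell from 32.0 and 35.9 CPM to 19.6 and 15.8 CPM (-0.94, SE 0.18, adjusted p 0.0263), and Tef, an activator of the PAR bZIP family, from 16.6 and 14.5 CPM to 8.42 and 6.25 CPM (-1.06, SE 0.22, adjusted p 0.0337). Nfil3 rose from 41.4 and 47.9 CPM to 79.8 and 68.0 CPM (0.73, SE 0.16, adjusted p 0.0418). In the list of 17 tested, 1 thus rose and 3 fell. The hour of lavage is not given in the labels, so age and hour of collection cannot be told apart here. Of 24 heat shock chaperone genes 3 rose and 0 fell: Dnaja1, from 88.9 and 90.1 CPM to 230.0 and 170.8 CPM (1.16, SE 0.17, adjusted p 0.00542), Chordc1 (0.89, adjusted p 0.0341) and Dnajb1 (0.62, adjusted p 0.0432). The stress-inducible Hspa1a was at 59.4 and 36.2 CPM against 18.4 and 11.01 CPM (1.72, adjusted p 0.15). Of 43 interferon-stimulated genes 0 passed the edgeR threshold, 8 had an unadjusted p under 0.05 and 1 was called by DESeq2. Their log2 values were above 0 for 35, where 49.4% of all genes lay, with a median of 0.29 in wild type and 0.03 in knockout. Nr1d2, Tef, Nfil3 and Dnajb1 lost their calls whichever library was left out, and Dnaja1 and Chordc1 without 10-week replicate 1 or either 4-week library, at adjusted p-values up to 0.31.

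Lists without a call in edgeR's test covered NRF2 and glutathione genes (32 tested), haem and iron handling (25), glucocorticoid response (21), immediate early genes (33), unfolded protein response (28), glycolysis (29), TGF-beta and BMP signalling (27), integrins (28), MHC class I (20), LXR targets (17), NF-kappa B (22), Fc and complement receptors (19), p53 targets (26) and eosinophil-associated ribonucleases (9). Of the 321 genes in these 14 lists, 78 had an unadjusted p under 0.05, and DESeq2 made 23 calls. The lists' median log2 fold changes lay between -0.11 and 0.13. In the surfactant and lipid uptake list Cd36 was the 1 call of 33 genes. The vitamin D list, 13 genes tested, had 0 edgeR calls, 6 genes at an unadjusted p under 0.05, 1 DESeq2 call and a median of 0.21. The sex-linked list had 0 edgeR calls of 9, 3 at an unadjusted p under 0.05 and 2 by DESeq2. Over all 12748 genes, 2367 (18.6%) had an unadjusted p under 0.05 and DESeq2 called 676.

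The same age contrast in the Vdr knockout uses other libraries, so it shows whether the named genes moved with age there too. In knockout 1240 genes (9.73%) were called, 624 higher (4.89%) and 616 lower (4.83%), and 51.7% of all genes had a log2 value above 0. Of the 179 genes that rose in wild type, 172 (96.1%) had the same sign in knockout and 119 (66.5%) were called there as higher, with a median log2 fold change of 0.90. Of the 90 that fell, 87 (96.7%) had the same sign and 57 (63.3%) were called as lower, with a median of -0.71. Over all 12748 genes 68.8% had the same sign in both. The knockout contrast has the same makeup, 1 Xist-high and 1 Xist-low library at 10 weeks with 1 from the other title series, so age and that makeup cannot be told apart by the agreement of the 2 contrasts. The class II genes rose more in knockout in value, H2-Aa by 6.17, H2-Ab1 by 6.11, Cd74 by 6.11, H2-Eb1 by 6.01 and Ciita by 5.75 on the log2 scale, but the test of the difference between genotypes did not pass for any of these 5 (edgeR adjusted p 0.342 to 0.573). Their knockout 4-week levels were lower and closer together, for instance 10.3 and 11.5 CPM for H2-Aa. Of the cell cycle list 49 of 58 fell in knockout with a median of -1.10. The heat shock list had a median of -0.18 in knockout, and Dnaja1 was at 127.2 and 92.5 CPM against 94.9 and 80.0 CPM there (log2 difference 0.33, adjusted p 0.236; difference between genotypes 0.83, adjusted p 0.327). Scd1 was at 13.3 and 7.68 CPM against 5.87 and 7.01 CPM (0.75, adjusted p 0.26; difference between genotypes 1.86, adjusted p 0.356).

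**Figure D5:**
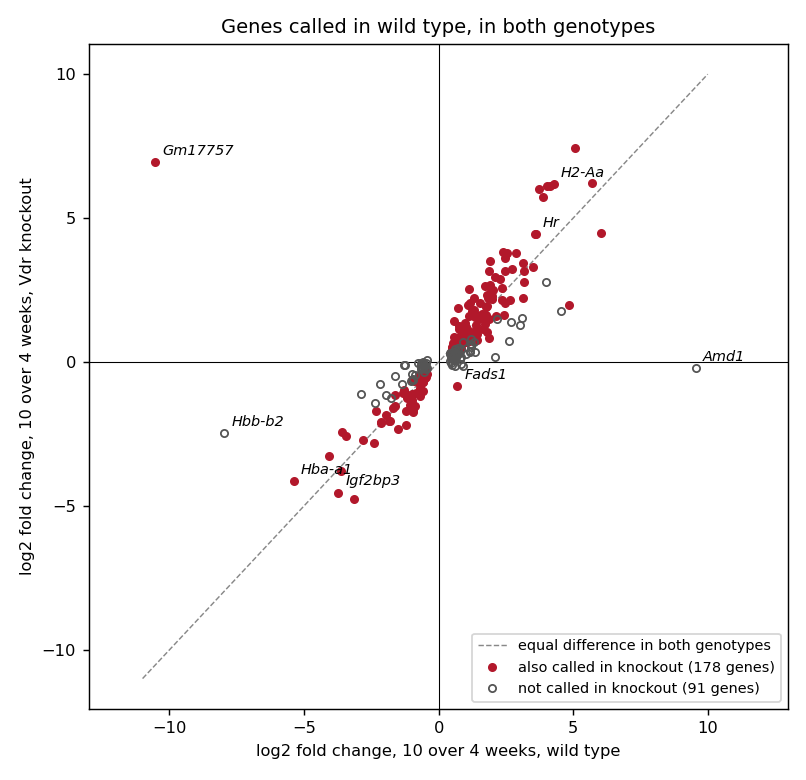
Log2 fold change, 10 over 4 weeks, of the 269 genes called in wild type, in wild type (horizontal) and in Vdr knockout (vertical), with filled points for genes also called in knockout and a dashed line for equal values. Most points lie in the lower left and upper right of the plot; Amd1 lies near 0 in knockout, and Gm17757 and Fads1 lie on opposite sides of 0, where the fitted value of Gm17757, which had 0 reads at 10 weeks in wild type, is no bound.

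The age difference differed between genotypes for 24 of all genes (0.188%), in a test that shares the wild-type libraries with the contrast above, and 3 of them were among the 269: Amd1, Gm17757 and Fads1. Ager and Tppp3, whose wild-type levels are given with the epithelial markers, were also of this kind. Hmox1 and Marco, the others named here, kept close levels in wild type. Hmox1, which degrades haem, was at 200.5 and 197.9 CPM at 10 weeks and at 231.4 and 152.2 CPM at 4 weeks in wild type. Marco, a scavenger receptor of alveolar macrophages, was at 365.0 and 330.1 CPM against 443.3 and 455.0 CPM (log2 difference -0.37, adjusted p 0.542). Both groups overlapped for Hmox1, while for Marco the 10-week libraries were lower without passing the test.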

How the data were processed

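Fresh lavage macrophages were sequenced as mRNA libraries (RNeasy Micro and KAPA mRNA HyperPrep kits, per the labels' protocols). The authors deposited raw read counts per gene for 23413 genes and a log2 table of CPM plus 1 for 10631 genes, the latter used here only to match columns to libraries. The submitters' processing notes name TopHat2, edgeR and mm9, with no versions; the sources used here name no counting program, strand setting or gene models. The counts were tested with edgeR 4.0.16 (R 4.3.3; filterByExpr with a count minimum of 10, TMM, quasi-likelihood F test in its legacy form, 1 coefficient per group over all 12 libraries, 6 residual degrees of freedom, Benjamini-Hochberg threshold 0.05); 12748 genes passed the filter. SE is the size of the log2 fold change over the square root of F. DESeq2 1.42.0, other filters, scalings, covariates and left-out libraries were alternatives.

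Members and gene lists were chosen with earlier results of these data known. Named genes were the 15 per direction with the largest change among calls with non-overlapping groups and a higher group mean of at least 5 CPM (predicted, small RNA and sex-linked genes left out), the 4 smallest p-values of each list with a call, the 3 most abundant markers of each marker list, up to 5 per direction of the genotype difference, Vdr and sex-linked genes; some fell outside the text, and others are marked as named after their values were seen. Libraries of a group differed beyond counting noise (chi-square per degree of freedom 14.4 at 10 weeks and 52.1 at 4 weeks).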

Additional observations from a re-analysis of the deposited data

Results flagged for a closer look

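For Amd1, Hmox1, Marco, Fads1, Gm17757, Ager and Tppp3 the age difference differed between the genotypes by edgeR's test of that difference. Its adjusted p-values are given, and values are the wild-type minus the knockout log2 age difference. Amd1 differed by 9.75 (adjusted p 9.56e-06), standing at 0.0699 and 0.0966 CPM in the 4-week wild-type libraries and at 58.25 to 124.4 CPM in the other 10. Its near-identical copy Amd2 went the other way with age in wild type, as given above, so the level of either is uncertain. Hmox1 differed by 2.87 (adjusted p 0.000706) and Marco by 2.94 (0.0206): in knockout they were at 985.3 and 990.8 CPM and at 2195 and 2086 CPM at 4 weeks. Fads1 differed by 1.54 (0.0206), and it fell with age in knockout from 17.6 and 22.4 CPM to 9.51 and 13.01 CPM. Gm17757 differed by -17.47 (0.0128), a fitted value that depends on the prior count because its 10-week wild-type libraries held 0 reads. Ager differed by -2.82 (0.0236) and Tppp3 by -1.49 (0.0363). In knockout Ager rose with age from 2.71 and 2.38 CPM to 9.70 and 10.75 CPM. Tppp3 rose there from 37.35 and 47.36 CPM to 185.2 and 203 CPM.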

How the results depend on the processing

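The 269 wild-type age calls became 676 with DESeq2, 1223 with no filter, 606 with only the 4 compared libraries, 667 with the 8 fresh ones and 413 with the replicate block, and 58 to 153 when 1 library was left out. They numbered 266 with DESeq2 size factors, 285 with a strict filter and 377 with edgeR's newer quasi-likelihood fit, an alternative added after seeing the data. The 1240 knockout calls became 2059 with no filter, 821 with the exchange and 242 to 651 with 1 library left out. The 24 genotype differences became 89 with DESeq2, 392 with no filter, 52 with the compared groups (the same 8 fresh libraries), 40 with the title series, 12 with the exchange and 5 to 15 with 1 library left out. The causes were not tested. The labels do not state that replicate numbers pair the libraries. The deviations of same-numbered wild-type libraries correlated at -0.04 between ages and those of knockout at 0.04. Those of the genotypes correlated at 0.17 at 10 weeks and -0.18 at 4 weeks. With 2 libraries per group such correlations cannot settle whether libraries were paired. Under the replicate block none of the named calls was lost and 3 named genes gained one. Not every gene named was followed across these settings. Among followed genes without a call, the log2 difference changed sign for H2-DMb2 (-0.0277 to 0.198 with 1 library left out, including -0.0237 without 10-week replicate 1), Hmox1 (-0.00309 with sex, -0.22 with the exchange, -0.21 to 0.38 with 1 left out), Ddx3y (0.0644 with sex, 0.14 with the exchange, -7.36 to 0.0227 with 1 left out) and Sftpc (-0.35 to 0.91 with 1 left out). The called Gm17757 stood at 0.73 with the exchange. Beyond these, Fads1 lost its call with DESeq2 size factors and with the 8 fresh libraries, Ifngr1 with DESeq2 size factors and with only the compared libraries, and S100a9 with only the compared libraries. Genes of few reads, such as Areg, are limited by depth.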
